A study of Mus musculus with 26 samples.

Results

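The comparison described here set fibroblasts reprogrammed with a lentiviral hairpin against Sap30 (OSK-shSap30-D7) against fibroblasts reprogrammed with the same factors alone (OSK-D7), both at day 7. Its members were 4 of the 26 libraries of the series, 2 in each group, and 13214 of the 18198 genes in the table, those with a value of 10 or more in 2 or more of the 4 libraries. All 4 came from mouse embryonic fibroblasts (MEF) infected with retrovirus made in the PlatE packaging line and carrying Oct4 (Pou5f1), Sox2 and Klf4, together called OSK. The infected cells were grown in iCD1 or ESC medium, and the labels do not say which medium was used for which library. The hairpin group received the shRNA by lentivirus in addition. No library of the series carried a control hairpin, so the lentivirus, the hairpin, the loss of Sap30 and the preparation of these libraries cannot be told apart. The labels do not give the mouse strain, the hairpin sequence or whether the 2 replicates were separate cultures, so the p-values measure only the spread between these libraries, which may be technical. The other 11 groups of 2 libraries, used for the estimate of spread and for context, were MEF, OSK at days 0, 1, 3 and 5, OSK with cJun (Jun) at days 0, 1, 3 and 7, and induced pluripotent (iPSC) and embryonic stem cells (ESC) grown with 2i and LIF.

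Sap30 encodes a subunit of the Sin3 complex, a corepressor that brings the histone deacetylases Hdac1 and Hdac2 to chromatin and is known for repressing transcription. Reprogramming by OSK turns fibroblasts into pluripotent cells by closing fibroblast-type chromatin and opening that of stem cells. Among the genes that differ most below are those of the interferon response. In that pathway interferon receptors signal through Janus kinases to transcription factors, which, with Irf proteins, raise antiviral genes, interferon-inducible GTPases and the machinery that loads peptides on MHC class I.

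The values are a whole-number score to which the same distribution was given in every library: the sum of a library lay between 4619641 and 4624161, and the top value of 21544 was held by 10 genes at once in each. Sequencing depth is therefore unknown, values at the top are tied, and shifts of total RNA cannot be seen. Correlation between replicates over the genes was 0.924 for OSK-D7 and 0.923 for OSK-shSap30-D7, within the range of the groups (0.917 in OSK-D5 to 0.962 in iPSC). These are bulk libraries, in which fewer cells of a type and less RNA per cell cannot be told apart. All 10 fibroblast markers were above 0 in each of the 4 libraries. Of 10 pluripotency markers, 1 (Dppa4) was listed at 0 in both hairpin libraries. Fold changes below are differences of the mean of log2(value + 1), which understates changes of low genes, and each has its standard error (SE). A gene was called when limma gave an adjusted p under 0.05 and the log2 fold was 1 or more in size.

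Sap30 itself (ENSMUSG00000031609, GRCm38 chr8:57482707-57487860, minus strand) stood at 301 and 378 in OSK-D7 and at 20 and 41 with the hairpin. Both hairpin libraries were far below both OSK-D7 libraries, and their mean was 8.98% of the OSK-D7 mean (log2 fold -3.51, SE 0.32, limma adjusted p = 1.12e-05). Without the hairpin, Sap30 stood at 67 and 36 in MEF, at 93 and 140 in OSK at day 3, at 148 and 207 at day 5, at 424 and 433 in iPSC and at 328 and 343 in ESC. In OSK with cJun at day 7 it stood at 74 and 93. The hairpin libraries thus overlapped the starting fibroblasts, while Sap30 was higher at each later day of the OSK course listed here.

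The reprogramming factors were not called. Pou5f1 stood at 11662 and 5480 in OSK-D7 and at 8974 and 6116 with the hairpin (log2 fold -0.11, SE 0.98, limma adjusted p = 0.958). Sox2 stood at 7717 and 6116 against 4303 and 4611 (-0.62, SE 0.48, limma adjusted p = 0.39). Klf4 stood at 21544 and 11663 against 5014 and 11662 (-1.05, SE 0.5, limma adjusted p = 0.152). Sox2 was lower in both hairpin libraries with no overlap, and for Pou5f1 the groups overlapped. Endogenous and viral transcripts of these genes are not separated in the table. Myc stood at 349 and 95 against 206 and 533 (limma adjusted p = 0.512), and Jun at 1010 and 582 against 444 and 726 (limma adjusted p = 0.451).

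Of the 13214 genes tested, 1546 were called, which is 11.7%: 788 (5.96%) higher and 758 (5.74%) lower with the hairpin. The median log2 fold was -0.024. The libraries of the groups did not overlap for 7395 genes (56%), 3591 of them higher (27.2%) and 3804 lower (28.8%). Of the genes tested, 551 passed the filter in 1 group only, so that they had to differ. The count was 523 without OSK-D7 replicate 2 and 943 without OSK-shSap30-D7 replicate 2.

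**Figure D1:**
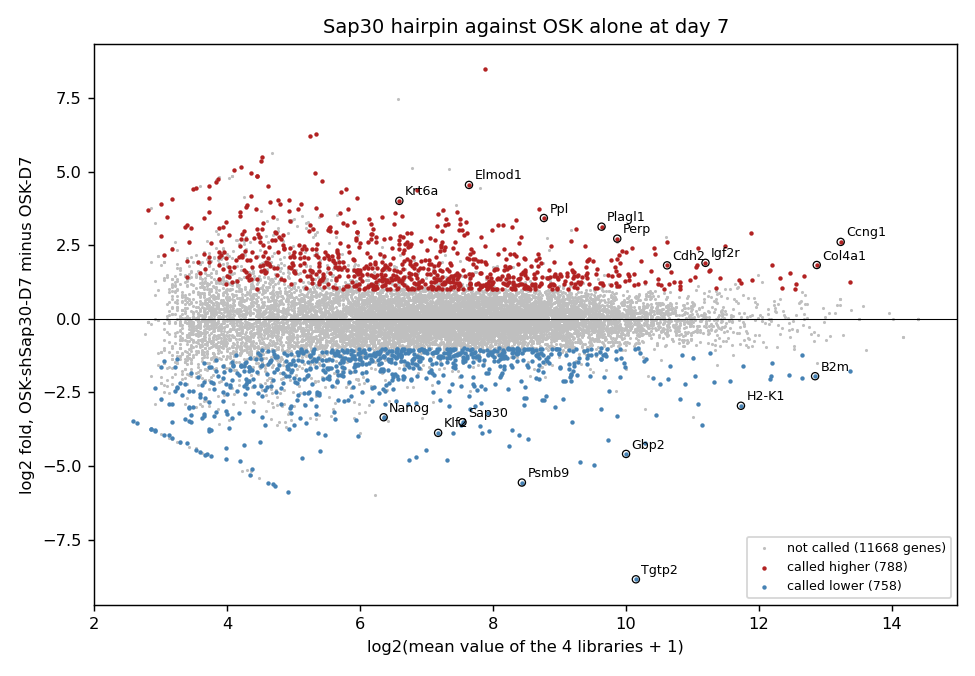
Each point is 1 of the 13214 genes tested; the horizontal axis is log2 of the mean value of the 4 libraries plus 1, the vertical axis the log2 fold of OSK-shSap30-D7 against OSK-D7. Red points are the 788 genes called higher and blue points the 758 called lower; circled genes are named in the text, the lines of points at the lower and upper left are genes with values near 0 in a group, and Tgtp2 is the lowest point at -8.85.

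The genes that fell furthest with the hairpin were mostly interferon-inducible, and those of MHC class I antigen presentation fell together. Of the 14 antigen presentation genes listed, 14 were tested and 14 were called lower, beside 5.74% of all genes tested. The groups did not overlap for any of the 14, beside 28.8% of all genes, and their median log2 fold was -3.28, beside -0.02 for all genes. One of the 14, Ciita, passed the filter through OSK-D7 alone. It stood at 10 and 16 there and was listed at 0 in both hairpin libraries.

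Class I molecules present peptides on the cell surface as a heavy chain bound to B2m. B2m, the shared light chain, stood at 11668 in both OSK-D7 libraries and at 2797 and 3269 with the hairpin (log2 fold -1.95, SE 0.37, limma adjusted p = 0.00201). H2-K1, a classical heavy chain, stood at 5023 and 6929 against 1077 and 538 (-2.95, SE 0.64, limma adjusted p = 0.00578). H2-D1, the other classical heavy chain in the list, stood at 3773 in both against 781 and 325 (-2.9, SE 0.47, limma adjusted p = 0.000764). Each of these genes was lower in both hairpin libraries by more than the spread within either group. The non-classical chain H2-Q4 stood at 2353 and 2708 against 290 and 240 (-3.25, SE 0.58, limma adjusted p = 0.00147). H2-T23, another non-classical chain, stood at 567 and 909 against 151 and 74 (-2.75, SE 0.59, limma adjusted p = 0.00487). Class I heavy chains are near-identical copies, and how the reads were shared among them is not given. Their single values are therefore uncertain. Their common direction may rest in part on shared reads, so they may not be independent members of the list.

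The genes that supply peptide fell too. Psmb9, an immunoproteasome subunit that replaces a constitutive catalytic subunit, stood at 417 and 936 in OSK-D7 and at 15 and 10 with the hairpin (log2 fold -5.56, SE 1.15, limma adjusted p = 0.00401). Psmb8, its neighbour in the class II region of chromosome 17 and another immunoproteasome subunit, stood at 970 and 1433 against 102 and 15 (-4.86, SE 1.11, limma adjusted p = 0.00744). Psmb10, the third such subunit, stood at 241 and 203 against 79 and 19 (-2.47, SE 0.58, limma adjusted p = 0.00807). All 3 immunoproteasome genes were lower in both hairpin libraries, and replicate 2 was the lower of the hairpin pair for each. Tap1 and Tap2 form the transporter that carries peptides into the endoplasmic reticulum, and lie between and beside Psmb9 and Psmb8 (chr17:34181987-34187764 for Psmb9, chr17:34187553-34197225 for Tap1, chr17:34197721-34201454 for Psmb8 and chr17:34203527-34216321 for Tap2, GRCm38). Tap1 stood at 1454 and 1900 against 279 and 101 (-3.3, SE 0.62, limma adjusted p = 0.00211), and Tap2 at 479 and 780 against 51 and 30 (-3.93, SE 0.83, limma adjusted p = 0.00471). Tapbp, the tapasin that bridges the transporter to class I, stood at 2150 and 2616 against 730 and 355 (-2.22, SE 0.34, limma adjusted p = 0.000518).

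Among regulators, Nlrc5, the transactivator of class I genes, stood at 449 and 399 in OSK-D7 and at 31 and 25 with the hairpin (log2 fold -3.88, SE 1.1, limma adjusted p = 0.0222). Cd74, the invariant chain of class II, stood at 395 and 758 against 38 and 18 (-4.33, SE 1.31, limma adjusted p = 0.0298). Both were lower in each hairpin library than in either OSK-D7 library, but their calls were lost when any of the 4 libraries was left out (limma adjusted p of 0.0549 to 0.193 for Cd74 and 0.0657 to 0.115 for Nlrc5). Of the 14 genes, 5 were called without OSK-D7 replicate 2, 7 without OSK-shSap30-D7 replicate 2, 11 without OSK-shSap30-D7 replicate 1 and 12 without OSK-D7 replicate 1. Leaving out OSK-D7 replicate 2, Psmb9, Psmb8, Psmb10, Tap2, H2-K1, H2-T23 and Ciita lost their calls too (limma adjusted p of 0.0543 for Psmb10 to 0.149 for Ciita). Without OSK-shSap30-D7 replicate 2 this held for Psmb8, Psmb10, H2-K1, H2-T23 and Ciita (0.059 for H2-T23 to 0.127 for Psmb10), and without OSK-shSap30-D7 replicate 1 for Ciita (0.0692). B2m, H2-D1, H2-Q4, Tap1 and Tapbp were called whichever library was left out.

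Of the 29 interferon-stimulated genes tested, 8 were called lower and 0 higher, beside 5.74% and 5.96% of all genes tested. The groups did not overlap for 22 of the 29, all lower, beside 28.8% lower and 27.2% higher of all genes. The median log2 fold was -0.99, beside -0.02 for all genes. Stat2, a transcription factor of type I interferon signalling, stood at 1179 and 1736 in OSK-D7 and at 276 and 243 with the hairpin (log2 fold -2.46, SE 0.39, limma adjusted p = 0.000606). Each OSK-D7 library lay above both hairpin libraries.

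The interferon-inducible GTPases, which act at vacuoles that hold intracellular pathogens, fell by differing amounts. Gbp2 stood at 2133 and 1798 in OSK-D7 and at 83 and 78 with the hairpin (log2 fold -4.59, SE 1.05, limma adjusted p = 0.00764). Igtp stood at 1701 and 3034 against 160 and 94 (-4.2, SE 1.05, limma adjusted p = 0.0124), and Irgm1 at 3611 and 2542 against 914 and 464 (-2.22, SE 0.55, limma adjusted p = 0.0115). None of these groups overlapped. Ifit3, an antiviral RNA-binding family member, stood at 99 and 124 against 11 and 8 (-3.43, SE 0.55, limma adjusted p = 0.000648). Oas1a, which makes the activator of RNase L, stood at 581 and 768 against 250 and 227 (-1.48, SE 0.33, limma adjusted p = 0.0059). Ddx58, the cytosolic RNA sensor RIG-I, stood at 1674 and 1588 against 654 and 819 (-1.15, SE 0.31, limma adjusted p = 0.0157). Stat2 and Ifit3 were called whichever library was left out. Without OSK-D7 replicate 2 the calls of Gbp2 (limma adjusted p = 0.057), Igtp (0.117), Irgm1 (0.0521), Oas1a (0.0841) and Ddx58 (0.0902) were lost. Irgm1 was also lost without OSK-D7 replicate 1 (0.0589) or OSK-shSap30-D7 replicate 2 (0.114), Igtp without OSK-shSap30-D7 replicate 2 (0.0833), and Ddx58 without OSK-D7 replicate 1 (0.0561) or OSK-shSap30-D7 replicate 1 (0.0929).

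Other genes of the same list differed less. Oas2, a relative of Oas1a, stood at 1456 and 1251 in OSK-D7 and at 1129 and 957 with the hairpin (log2 fold -0.38, SE 0.24, limma adjusted p = 0.286). Irf9, a DNA-binding factor of type I signalling, stood at 442 and 366 against 307 and 294 (-0.42, limma adjusted p = 0.308). Ifi44 stood at 223 and 227 against 285 and 198 (0.08, SE 0.42, limma adjusted p = 0.926), and Rsad2, the antiviral enzyme viperin, at 99 and 36 against 83 and 46 (0.05, SE 0.59, limma adjusted p = 0.971). The groups overlapped for Ifi44 and Rsad2 and did not for Oas2 and Irf9. Isg15, a ubiquitin-like modifier, stood at 369 and 330 against 279 and 81 (-1.21, limma adjusted p = 0.119). Ccl2, a chemokine of the inflammatory list, stood at 464 and 392 against 86 and 96 (-2.22, SE 0.74, limma adjusted p = 0.0468). It was the 1 gene called of 13 tested in that list, beside 5.96% called higher and 5.74% lower of all genes tested. Its call was lost when any of the 4 libraries was left out (log2 fold of -2.1 to -2.34).

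The promoters of 4 genes that fell are shown because their start-proximal sequence holds a motif by which interferon-activated factors are known to bind. The sequences are the 250 bases before the start site in RefSeq (GRCm38.p6), read 5′ to 3′ on the gene's strand. Capitals mark each match, on either strand, to GAAANNGAAA, as in the interferon-stimulated response element, or to TTCNNNGAA, as in the gamma-activated site. The windows are chr2:122147437-122147686 (plus strand) for B2m, chr11:58199306-58199555 (plus) for Igtp, chr11:49064213-49064462 (minus) for Tgtp2 and chr19:34583279-34583528 (plus) for Ifit3.
B2m: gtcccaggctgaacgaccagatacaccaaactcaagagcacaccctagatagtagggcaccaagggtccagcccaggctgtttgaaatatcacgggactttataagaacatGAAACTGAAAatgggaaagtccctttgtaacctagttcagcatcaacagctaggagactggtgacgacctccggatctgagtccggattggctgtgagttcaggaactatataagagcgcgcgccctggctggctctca
Igtp: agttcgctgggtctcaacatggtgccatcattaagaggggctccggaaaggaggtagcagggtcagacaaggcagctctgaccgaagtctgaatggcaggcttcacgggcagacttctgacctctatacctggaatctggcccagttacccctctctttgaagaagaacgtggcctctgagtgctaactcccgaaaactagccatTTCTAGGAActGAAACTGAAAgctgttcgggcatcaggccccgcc
Tgtp2: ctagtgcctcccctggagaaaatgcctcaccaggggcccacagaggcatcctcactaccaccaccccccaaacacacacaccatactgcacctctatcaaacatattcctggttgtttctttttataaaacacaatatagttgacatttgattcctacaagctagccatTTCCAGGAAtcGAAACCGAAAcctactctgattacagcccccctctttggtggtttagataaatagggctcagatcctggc
Ifit3: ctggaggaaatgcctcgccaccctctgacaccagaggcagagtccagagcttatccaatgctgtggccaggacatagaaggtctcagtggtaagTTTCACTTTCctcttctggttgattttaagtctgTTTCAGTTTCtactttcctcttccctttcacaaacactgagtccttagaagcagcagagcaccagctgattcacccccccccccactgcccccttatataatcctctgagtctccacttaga
Counting the base before the start as -1, GAAANNGAAA began at -139 in B2m, -34 in Igtp, -70 in Tgtp2, and at -156 and -122 in Ifit3. In Igtp and Tgtp2 a TTCNNNGAA match lay just upstream, at -45 and -81, with no overlap with the other motif.

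GAAANNGAAA was found in the windows of 14 of the 24 interferon-stimulated genes that had a RefSeq promoter (58.3%), and in 2 of 10 antigen presentation genes, B2m and H2-T23. Of the 10053 tested genes with a promoter in the table, 3.23% held it. TTCNNNGAA was in 5 of 24 interferon-stimulated genes (20.8%), in 1 of 10 antigen presentation genes, Psmb8, and in 7.26% of tested genes. Matches were also present in genes that were not called, and absent from some that were. Isg15 held 3 matches to GAAANNGAAA and Rsad2 held 1, and neither was called, whereas Ddx58 was called and held none. In the 8 of the 14 genes with the largest increases that had a promoter, neither motif was found, beside 10.1% of tested genes with either. With so few genes this is no contrast with the genes that fell. These are descriptions of letters in this window and not of binding.

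The level of these genes across the series gave the fall its scale. The mean log2 value of the 14 antigen presentation genes was 9.71 and 10.11 in OSK-D7 and 6.94 and 6.01 with the hairpin. It lay between 3.92 and 5.2 in the 14 libraries of MEF, ESC, iPSC and days 0 and 1, and between 7.33 and 10.3 in the 10 libraries of OSK and OSK with cJun at days 3 to 7. Both hairpin libraries were thus below all of those 10 and above all of those 14. For the 29 interferon-stimulated genes the means were 8.54 and 8.29 in OSK-D7 and 7.42 and 6.93 with the hairpin, against 8.02 to 9.33 in the 10 libraries and 3.33 to 4.74 in the 14. The hairpin libraries again lay between both sets.

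The replicates of OSK-D5 differed from each other in these genes, which bears on that range. Gbp2 stood at 181 and 7733 in OSK-D5 replicates 1 and 2, Psmb9 at 19 and 574, and Tgtp2 at 31 and 3778. Pou5f1 also differed between them, at 656 and 21544. OSK-D5 replicate 1, which had no hairpin, was the library with the antigen presentation mean of 7.33. It stood near the hairpin libraries in Tgtp2 and Psmb9. Among other GTPase genes it was also near them in Iigp1 (26 against 38 and 17) and Igtp (210 against 160 and 94). It was below them in Gbp4 (38 against 144 and 241) and above them in Gbp2 and Tgtp1 (2151 against 375 and 303 for Tgtp1). With the OSK-D5 libraries left out of the fit, the calls of the antigen presentation genes, Stat2, Gbp2 and Igtp were kept.

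**Figure D2:**
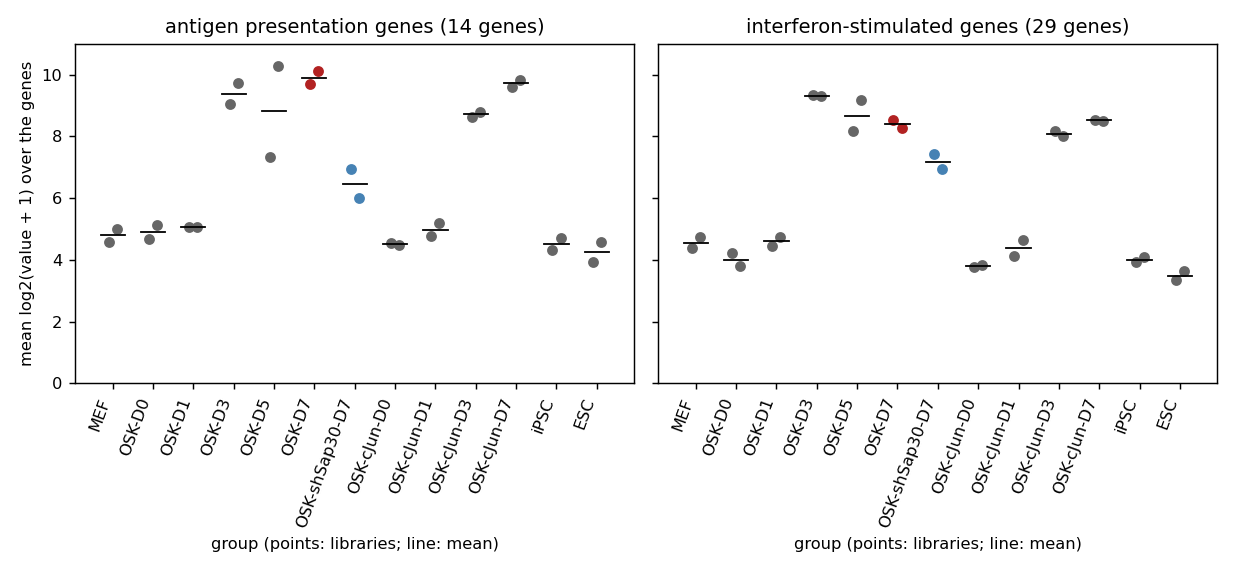
Mean of log2(value + 1) over 14 antigen presentation genes (left) and 29 interferon-stimulated genes (right), 1 point for each library with a line at each group's mean. The OSK-shSap30-D7 libraries (blue, 6.94 and 6.01 on the left, 7.42 and 6.93 on the right) lie below OSK-D7 (red) and above MEF, iPSC and ESC; the OSK-D5 libraries are far apart on the left.

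The 14 genes with the largest falls, taken among called genes with a mean of at least 100 in the higher group, include 7 already described: Psmb9, Psmb8, Gbp2, Cd74, Igtp, Tap2 and Nlrc5. The largest value was that of Tgtp2, an interferon-inducible GTPase (chr11:49057194-49064206, minus strand). It stood at 2153 and 2358 in OSK-D7, and at 23 and 0 with the hairpin (log2 fold -8.85, SE 1.82, limma adjusted p = 0.00414). Tgtp2 has a near-identical neighbour, Tgtp1, so the split of reads between them is uncertain. The neighbouring GTPase gene Ifi47 stood at 613 and 766 against 61 and 26 (-4.07, SE 0.83, limma adjusted p = 0.00363). The class I genes H2-Q6 and H2-Q7, near copies of each other, stood at 1222 and 1607 against 26 and 73 (-4.97, SE 1.2) and at 1519 and 1702 against 85 and 99 (-4.12, SE 0.85).

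The remaining 3 were Ifi27l2a, Aoc1 and Uba7. Ifi27l2a, an interferon-inducible gene of mitochondria, stood at 173 and 226 in OSK-D7, and at 57 and 0 with the hairpin. Uba7, the activating enzyme for Isg15, stood at 107 and 126 against 7 and 6 (log2 fold -3.97, SE 0.76, limma adjusted p = 0.00222) and passed the filter through OSK-D7 alone. Aoc1, a diamine oxidase with no place in the interferon lists, stood at 225 and 257 against 6 and 16 (-4.47, SE 0.69, limma adjusted p = 0.000502). For each of the 14 both hairpin libraries were below both OSK-D7 libraries, which the choice of these genes required. Aoc1, H2-Q7, Ifi47 and Uba7 were called whichever library was left out. The call of H2-Q6 was lost without OSK-D7 replicate 2 (limma adjusted p = 0.0877) or OSK-shSap30-D7 replicate 1 (0.0681). Ifi27l2a was lost without OSK-D7 replicate 2 (0.107) or OSK-shSap30-D7 replicate 2 (0.215), and Tgtp2 without OSK-shSap30-D7 replicate 2 (0.0567).

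The genes with the largest increases came from several classes. Elmod1, a regulator of Arf-family GTPases, stood at 12 and 16 in OSK-D7 and at 222 and 542 with the hairpin (log2 fold 4.55, SE 0.76, limma adjusted p = 0.000876). Shisa6, which encodes an auxiliary protein of glutamate receptors, stood at 15 and 6 against 254 and 186 (4.37, SE 0.78, limma adjusted p = 0.00139). Gpr50, an orphan receptor related to melatonin receptors, stood at 94 and 33 against 700 and 821 (3.74, SE 0.58, limma adjusted p = 0.00055). These genes were low in both stem cell groups and in MEF, where none of the 3 exceeded 9.

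Fabp3, a fatty-acid carrier of muscle, stood at 4 and 7 against 73 and 160 (4.11, SE 0.58) and passed the filter through the hairpin libraries alone. Mfap3l stood at 34 and 12 against 280 and 274 (3.7, SE 0.52), Ano4, a member of the anoctamin family, at 20 and 11 against 158 and 202 (3.5, SE 0.49), and Greb1, known as an oestrogen-responsive gene, at 40 and 17 against 275 and 290 (3.38, SE 0.59). Cspg4, the NG2 proteoglycan of pericytes and glial precursors, stood at 27 and 16 against 210 and 319 (3.57, SE 0.53). Ppl, the cornified-envelope and desmosome protein periplakin, stood at 103 and 51 against 836 and 744 (3.42, SE 0.63). All these genes, with Elmod1, Shisa6 and Gpr50, were called whichever library was left out.

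Krt6a, a stress keratin of stratified epithelium, stood at 19 and 4 in OSK-D7 and at 98 and 260 with the hairpin (log2 fold 4.01, SE 0.8, limma adjusted p = 0.00301). Fosl1, an AP-1 subunit, stood at 97 and 7 against 220 and 394 (3.4, SE 1.05, limma adjusted p = 0.0339). Grem1, a secreted BMP antagonist, stood at 46 and 12 against 225 and 417 (3.64, SE 0.86), Kdr, the VEGF receptor, at 16 and 8 against 87 and 254 (3.6, SE 1.07), and Adamts5, an aggrecanase, at 18 and 8 against 110 and 183 (3.45, SE 0.96). In each of these 5 genes OSK-D7 replicate 2 was the lowest library. Without it the calls of Krt6a (limma adjusted p = 0.0708), Fosl1 (0.419), Grem1 (0.138), Kdr (0.195) and Adamts5 (0.178) were lost. Without OSK-shSap30-D7 replicate 2, Fosl1 (0.167), Grem1 (0.0743), Kdr (0.188) and Adamts5 (0.122) were lost, and without OSK-shSap30-D7 replicate 1, Fosl1 (0.0632).

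**Figure D3:**
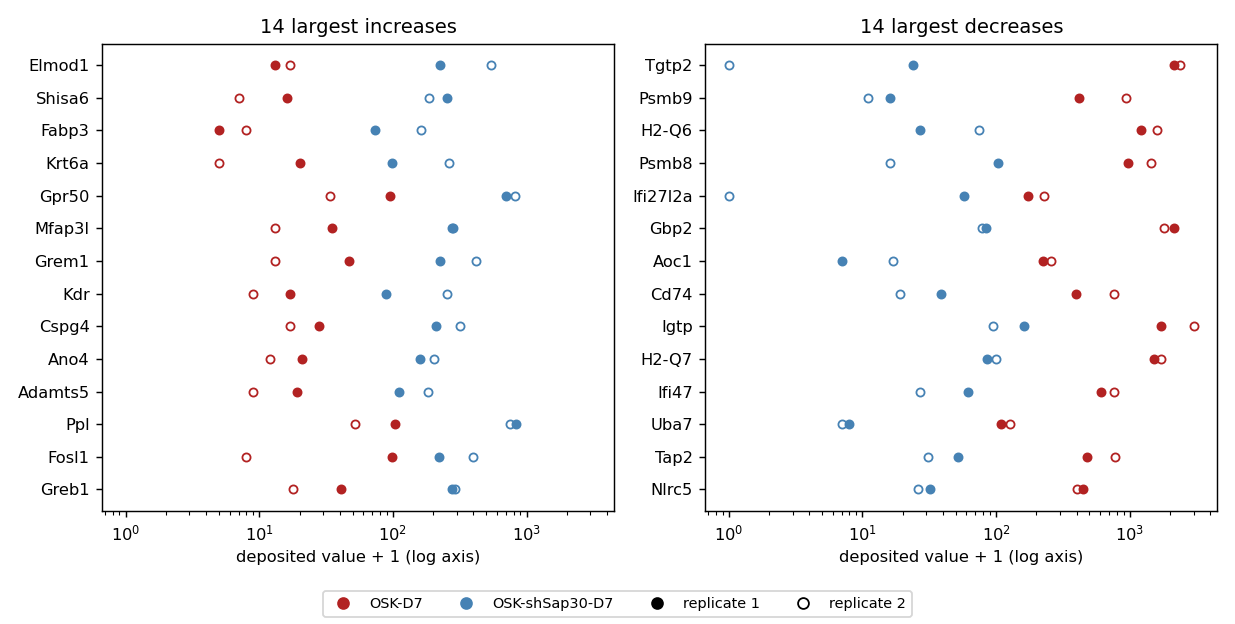
Deposited values plus 1, on a log axis, of the 14 genes with the largest increases (left) and the 14 with the largest decreases (right), with OSK-D7 in red and OSK-shSap30-D7 in blue, filled for replicate 1 and open for replicate 2. No gene has overlapping groups, which the choice of genes required; in the right panel Tgtp2 and Ifi27l2a are at 0 in hairpin replicate 2.

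Several of the genes that rose were also high in OSK with cJun at day 7, a group outside the comparison. Elmod1 stood at 413 and 168 in OSK-cJun-D7, Shisa6 at 654 and 103, Gpr50 at 1901 and 1188, Cspg4 at 401 and 351 and Krt6a at 277 and 210. Fabp3, at 2 and 3, was not high there. For the genes that fell, Psmb9 stood at 325 and 513 in OSK-cJun-D7, above the hairpin libraries. Aoc1, at 24 and 16, was low in it.

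Of the 19 p53 targets and senescence regulators tested, 4 were called higher and 0 lower, beside 5.96% and 5.74% of all genes tested, and the median log2 fold was 0.61, beside -0.02. The groups did not overlap for 14 of the 19, 13 higher and 1 lower, beside 27.2% and 28.8% of all genes. Ccng1, cyclin G1, an early target of p53, stood at 2793 and 2400 in OSK-D7 and at 11662 and 21544 with the hairpin (log2 fold 2.61, SE 0.39, limma adjusted p = 0.000409). The upper value is the ceiling of the table, so its true difference may be larger. Perp, a p53 target of desmosomes, stood at 274 and 217 against 1505 and 1736 (2.72, SE 0.51, limma adjusted p = 0.00202). Mdm2, the ubiquitin ligase that restrains p53, stood at 537 and 327 against 828 and 1073 (1.17, SE 0.22, limma adjusted p = 0.00199). Bbc3, the pro-apoptotic Puma, stood at 52 and 86 against 200 and 213 (1.61, SE 0.39, limma adjusted p = 0.00951). All 4 were higher in both hairpin libraries.

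The p53 gene itself and its best-known target showed other values. Trp53 stood at 928 and 716 in OSK-D7 and at 703 and 801 with the hairpin (log2 fold -0.12, SE 0.2, limma adjusted p = 0.733). Cdkn1a, the p21 inhibitor of the cell cycle, stood at 1651 and 1769 against 2260 and 2619 (0.51, SE 0.21, limma adjusted p = 0.106). Cdkn1a was higher in both hairpin libraries but not called, and the groups overlapped for Trp53. Cdkn2a, the Ink4a/Arf locus, stood at 149 and 528 against 208 and 99 (-0.96, limma adjusted p = 0.431). Perp stood at 402 and 427 at OSK day 0 and Ccng1 at 6922 and 7714, so both were above OSK-D7 at the start of the OSK course. Ccng1 and Perp were called whichever library was left out. Mdm2 was lost without OSK-D7 replicate 2 (limma adjusted p = 0.0568) and fell short of the fold without OSK-shSap30-D7 replicate 2. Bbc3 was lost without OSK-D7 replicate 1 (0.073) or OSK-shSap30-D7 replicate 2 (0.0567).

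Imprinted genes, expressed from 1 parental allele and often growth regulators, were called in both directions. Of 20 tested, 7 were higher and 3 lower, beside 5.96% and 5.74% of all genes, and 1 passed the filter in 1 group only. The median log2 fold was 1.4, beside -0.02. Igf2r, the receptor that clears Igf2, stood at 1071 and 911 in OSK-D7 and at 3614 and 3777 with the hairpin (log2 fold 1.9, SE 0.2, limma adjusted p = 2.39e-05). It stood at 3777 in both MEF libraries, at the level of the hairpin libraries, and at 722 and 692 in ESC. Plagl1, a zinc-finger factor of the imprinted growth network, stood at 169 and 126 against 795 and 2078 (3.13, SE 0.41, limma adjusted p = 0.000167). It was also high in MEF (985 and 613) and in ESC (1059 and 1214). Grb10, an adaptor that restrains insulin and growth factor receptors, stood at 1773 and 1255 against 4624 and 3276 (1.38, SE 0.3, limma adjusted p = 0.00549).

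The other increases were Zim1, Mest, Ndn and Cdkn1c, all below 200 in each of the 4 libraries. Zim1 stood at 3 and 1 against 10 and 85, and passed through the hairpin libraries alone. The falls were those of Meg3, Sgce and Snrpn. Meg3, a maternally expressed long noncoding RNA, stood at 1386 and 1562 against 564 and 483 (log2 fold -1.49, SE 0.32, limma adjusted p = 0.00482). Igf2 stood at 283 and 51 against 830 and 1138 (3, SE 1.04, limma adjusted p = 0.0557), and the noncoding H19 of the same domain at 909 and 153 against 2619 and 2542 (2.79, SE 1.07, limma adjusted p = 0.0805). Neither was called, although both were higher in both hairpin libraries. Without OSK-D7 replicate 2, Grb10 (0.0901), Meg3 (0.0571), Mest (0.153), Ndn (0.244), Cdkn1c (0.238), Sgce (0.228) and Snrpn (0.178) lost their calls by limma adjusted p. Without OSK-shSap30-D7 replicate 1, Grb10 (0.0506), Mest (0.102), Ndn (0.0612), Cdkn1c (0.0561) and Sgce (0.0752) did. Without OSK-shSap30-D7 replicate 2, Ndn (0.125), Cdkn1c (0.169), Sgce (0.0947) and Snrpn (0.083) did. Igf2r, Plagl1 and Zim1 were called whichever library was left out.

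Of the 11 primitive endoderm genes tested of 18 listed, 5 were called higher and 1 lower, beside 5.96% and 5.74% of all genes, with a median log2 fold of 1.26, beside -0.02. The 5 were Col4a1, Lamb1, Lama1, Lamc1 and Sparc, which encode collagen and laminin chains and a collagen-binding protein. Col4a1, a chain of collagen IV, stood at 3415 and 3158 in OSK-D7 and at 11672 in both hairpin libraries (log2 fold 1.83, SE 0.24, limma adjusted p = 0.000176). Lamb1, a laminin beta chain, stood at 376 and 296 against 1365 and 2310 (2.41, SE 0.32, limma adjusted p = 0.000176). Lama1 stood at 666 and 449 against 1122 and 2192 (1.52, SE 0.35, limma adjusted p = 0.00788) and Lamc1 at 6124 and 5489 against 8981 and 21544 (1.26, SE 0.31, limma adjusted p = 0.0108). Sparc, that glycoprotein of the matrix, stood at 2032 and 2190 against 4009 and 6929 (1.32, SE 0.42, limma adjusted p = 0.0384). In all 5 the hairpin libraries lay above OSK-D7.

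The defining regulators of primitive endoderm were near 0. Sox7 and Ttr were listed at 0 in all 4 libraries, Sox17 was at most 4 and Gata4 at most 3, while Gata6 stood at 23 and 12 against 17 and 31 and was not called. Dab2, an endocytic adaptor, was lower, at 75 and 78 against 27 and 29 (log2 fold -1.42, SE 0.28, limma adjusted p = 0.00302). The genes of the list that were called higher were matrix genes. Of these 5 regulators and secreted markers only Gata6 was tested. The others were under the filter and could not be called. The summed value of the list's 18 genes was 15172 and 14119 in OSK-D7 and 31594 and 52551 with the hairpin. Leaving out OSK-D7 replicate 2 ended the calls of Lama1 (limma adjusted p = 0.113), Lamc1 (0.0964) and Sparc (0.152), and leaving out OSK-shSap30-D7 replicate 2 those of Lama1 (0.113), Lamc1 (0.174) and Sparc (0.272). Sparc was also lost without OSK-D7 replicate 1 (0.114).

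**Figure D4:**
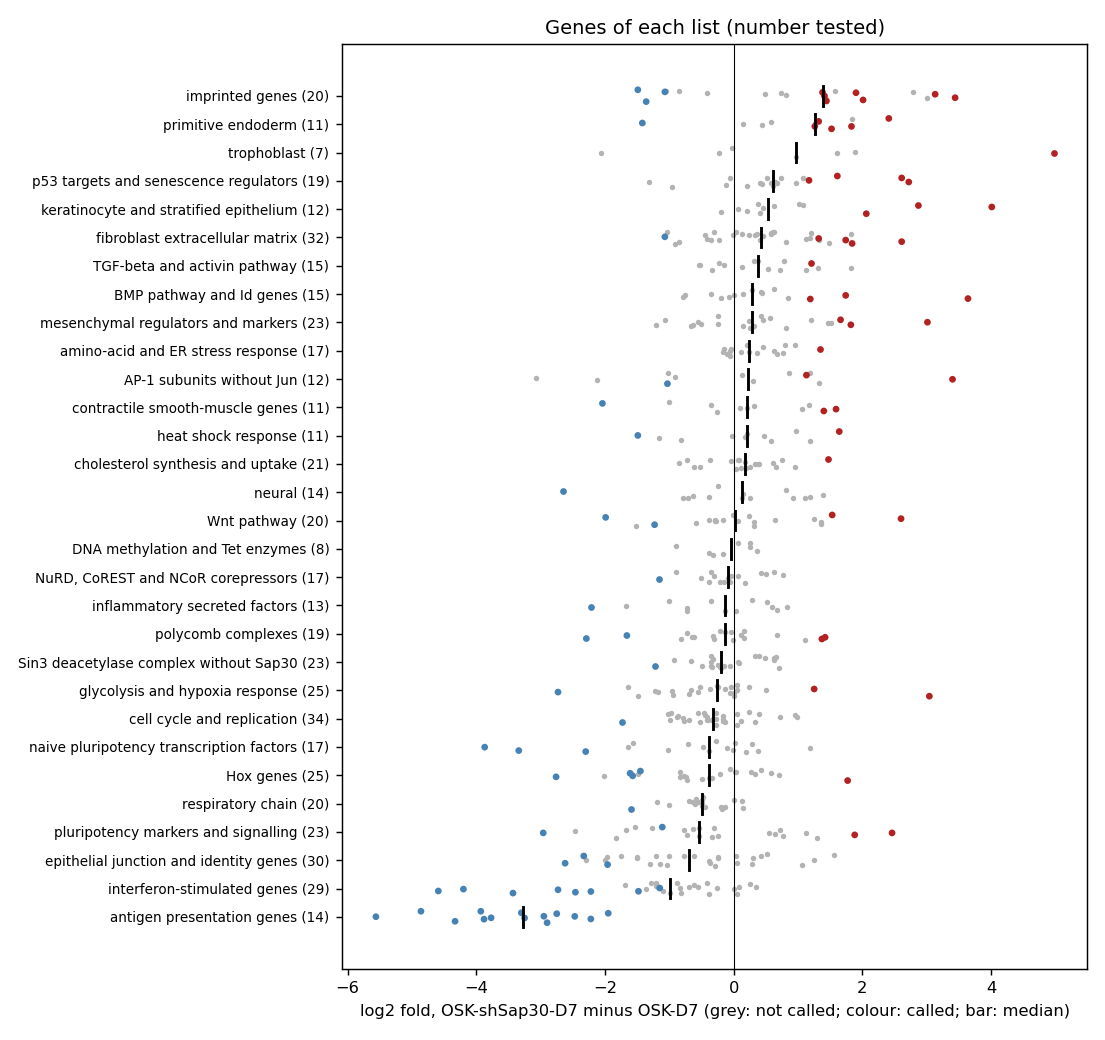
Log2 folds of OSK-shSap30-D7 against OSK-D7 for the tested genes of each list with at least 7 tested genes (number in brackets), 1 point for each gene, ordered by the list's median (black bar). Red and blue points are genes called higher and lower; antigen presentation genes (median -3.28) and interferon-stimulated genes (-0.99) are the lowest lists, imprinted genes (1.4) the highest.

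Genes of naive pluripotency were lower in part. Of 17 transcription factors tested, 3 were called lower and 0 higher, beside 5.74% and 5.96% of all genes, and the median log2 fold was -0.38, beside -0.02. Klf2, a factor of the naive network, stood at 324 and 207 in OSK-D7 and at 34 and 8 with the hairpin (log2 fold -3.87, SE 0.81, limma adjusted p = 0.00436). Nanog, a core pluripotency factor, stood at 111 and 179 against 6 and 27 (-3.34, SE 0.83, limma adjusted p = 0.0112). Zfp42, known as Rex1, stood at 85 and 111 against 21 and 17 (-2.3, SE 0.53, limma adjusted p = 0.00731). All 3 were lower in both hairpin libraries, and Nanog stood at 5023 and 4616 in ESC, far above either group.

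Esrrb, another naive factor, stood at 63 and 60 against 17 and 24 (log2 fold -1.56, SE 0.95, limma adjusted p = 0.271), and Tfcp2l1 at 634 and 614 against 263 and 151 (-1.64, SE 0.96, limma adjusted p = 0.252). Neither was called, with groups that did not overlap. Sall4 stood at 293 and 172 against 174 and 248, with overlap. Of 23 pluripotency markers and signalling genes tested, 2 were called higher and 2 lower, beside 5.96% and 5.74% of all genes. Dppa5a, an RNA-binding marker of naive cells, stood at 45 and 62 against 11 and 3 (-2.96, limma adjusted p = 0.00942), and Mkrn1, a ubiquitin ligase, at 937 and 1177 against 581 and 406 (-1.11, limma adjusted p = 0.0177). Jam2, a junctional adhesion molecule, was higher, at 319 and 169 against 652 and 1133 (1.88, limma adjusted p = 0.042), as was Lin28a, which blocks let-7 maturation, at 9 and 3 against 66 and 17 (2.46, limma adjusted p = 0.0479). Lin28a passed the filter through the hairpin libraries alone.

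The calls of these genes leaned on single libraries. Without OSK-D7 replicate 2, Nanog (limma adjusted p = 0.113), Zfp42 (0.0846), Dppa5a (0.0951), Mkrn1 (0.158), Jam2 (0.297) and Lin28a (0.329) were lost. Without OSK-shSap30-D7 replicate 1, Nanog (0.115), Jam2 (0.0555) and Lin28a (0.322) were lost, and without OSK-shSap30-D7 replicate 2, Klf2 (0.0607), Zfp42 (0.0511), Dppa5a (0.112), Mkrn1 (0.156) and Jam2 (0.231). The summed value of the 10 pluripotency markers was 3412 and 2432 in OSK-D7 and 1439 and 1530 with the hairpin.

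Epithelial genes are gained when fibroblasts pass through the mesenchymal-to-epithelial transition of early reprogramming. Of 30 tested, 3 were called lower and 0 higher, beside 5.74% and 5.96% of all genes. Without overlap 17 were lower and 3 higher, beside 28.8% and 27.2%, and the median log2 fold was -0.7. Elf3, an epithelial transcription factor, stood at 503 and 686 in OSK-D7 and at 111 and 122 with the hairpin (log2 fold -2.33, SE 0.33, limma adjusted p = 0.000293). Spint1, a protease inhibitor, stood at 277 and 606 against 116 and 94 (-1.96, SE 0.58, limma adjusted p = 0.0272). Cldn7, a tight-junction claudin, stood at 50 and 145 against 27 and 6 (-2.62, SE 0.83, limma adjusted p = 0.0353). Cdh1, E-cadherin, stood at 1704 and 1993 against 855 and 938 (-1.04, SE 0.87, limma adjusted p = 0.442) and was not called, although the groups did not overlap. Epcam, at 971 and 2619 against 610 and 686, was not called either (-1.3, limma adjusted p = 0.163). Elf3 was called whichever library was left out. Spint1 was lost without OSK-D7 replicate 2 (0.27), OSK-shSap30-D7 replicate 1 (0.0658) or replicate 2 (0.135), and Cldn7 without OSK-D7 replicate 2 (0.309) or OSK-shSap30-D7 replicate 2 (0.299).

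Of 23 mesenchymal genes tested, 3 were called higher and 0 lower, beside 5.96% and 5.74% of all genes, with a median log2 fold of 0.29. Without overlap 10 were higher and 5 lower, beside 27.2% and 28.8%. Cdh2, N-cadherin, stood at 726 and 656 in OSK-D7 and at 2188 and 2708 with the hairpin (log2 fold 1.82, SE 0.18, limma adjusted p = 1.38e-05). Tgfbr1, the type I TGF-beta receptor, stood at 133 and 136 against 510 and 358 (1.66, SE 0.3, limma adjusted p = 0.00132). S100a4, a calcium-binding protein of fibroblasts, stood at 83 and 35 against 425 and 462 (3.01, SE 0.63, limma adjusted p = 0.0047), and was lost without OSK-D7 replicate 2 (0.0838). Zeb1, Zeb2 and Runx1, transcription factors of the mesenchymal state, were higher in both hairpin libraries without being called (limma adjusted p = 0.0532, 0.115 and 0.0884). Others of the list were lower in both without being called, among them Fn1, fibronectin, at 8987 and 8988 against 6131 and 6131 (-0.55, limma adjusted p = 0.188), Foxd1 at 1349 and 1253 against 875 and 437 (-1.07, limma adjusted p = 0.33), and Tgfb1 at 64 and 19 against 18 and 12 (-1.2, limma adjusted p = 0.0818). Vim stood at 21544 in both OSK-D7 libraries, the ceiling, against 21544 and 8987, so that its difference is not measurable here.

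Extracellular matrix genes did not move as a block. Of 32 tested, 4 were called higher and 1 lower, beside 5.96% and 5.74% of all genes, with a median log2 fold of 0.43. Col5a2, a chain of collagen V, stood at 2154 and 1951 in OSK-D7 and at 6943 and 7737 with the hairpin (log2 fold 1.84, SE 0.32, limma adjusted p = 0.00109), and Col5a1 at 216 and 83 against 414 and 492 (1.74, SE 0.38, limma adjusted p = 0.00549). Timp3, a matrix-bound protease inhibitor, stood at 592 and 300 against 1947 and 3415 (2.61, SE 0.53, limma adjusted p = 0.00373). Sparc was the fourth. Col1a2, a chain of collagen I, stood at 6942 and 8993 against 3419 and 4318 (-1.04, SE 0.63, limma adjusted p = 0.273), lower in both libraries and not called. Fbln1 stood at 309 and 387 against 167 and 161 (-1.07, SE 0.36, limma adjusted p = 0.0495), and was lost when any of the 4 libraries was left out (0.0706 to 0.269). Timp3 (0.0691) and Col5a1 (0.121) lost their calls without OSK-D7 replicate 2 too. The summed value of the 10 fibroblast markers was 12054 and 11254 in OSK-D7 and 6463 and 7736 with the hairpin. Col1a2, which was not called, made up most of that sum in each of the 4 libraries. The part of these markers in the comparison was not tested.

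Genes high in MEF or in ESC place these libraries on the path between both cells. Of the 1526 genes called higher in MEF than in ESC by a log2 fold of at least 3, 1115 were tested, 81 of them through 1 group only. With the hairpin 186 were higher (16.7%) and 62 lower (5.56%), beside 5.96% and 5.74% of all genes, and the median log2 fold was 0.382. Of the 1266 genes high in ESC, 685 were tested, 71 through 1 group only. Of these, 35 were higher (5.11%) and 72 lower (10.5%), with a median of -0.243.

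On a scale from 0% at the MEF mean to 100% at the ESC mean, the OSK-D7 libraries stood at 42.66% and 50.04% over the MEF-high genes and the hairpin libraries at 40.14% and 38.46%. Over the ESC-high genes they stood at 45.89% and 46.53% against 39.95% and 39.76%. The hairpin libraries were nearer MEF on both measures, by -7.05 and -6.35 percentage points (exact permutation test over the 4 libraries, two-sided p = 0.333 for each, the smallest that 2 against 2 can give). The OSK-D5 libraries stood at 33.78% and 40.52% over MEF-high genes and at 37.62% and 40.1% over ESC-high genes, a range that overlaps the hairpin libraries. Over the 16038 genes filtered on all 26 libraries, the hairpin group differed from OSK-D5 in 1126 genes (7.02%), from OSK-D7 in 1580 (9.85%) and from OSK at day 3 in 1772 (11%). It differed from iPSC in 5683 (35.4%) and from ESC in 6234 (38.9%). These comparisons share the hairpin libraries.

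**Figure D5:**
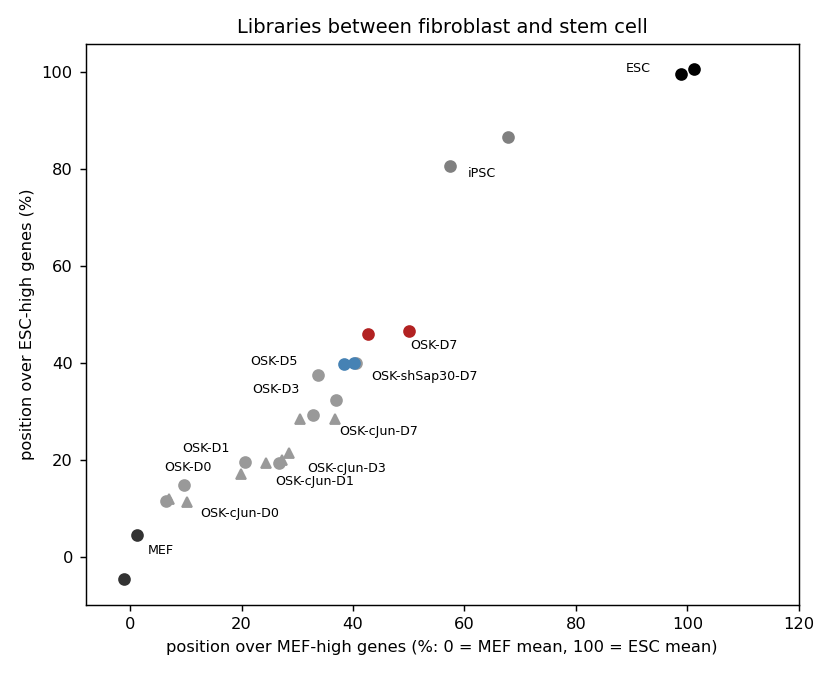
Position of each of the 26 libraries between the MEF mean (0%) and the ESC mean (100%), over MEF-high genes (horizontal) and ESC-high genes (vertical); triangles are groups with cJun. The OSK-shSap30-D7 libraries (blue, 40.14% and 38.46% by 39.95% and 39.76%) lie below OSK-D7 (red) and beside OSK-D5.

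Few partner genes of Sap30 were called at the transcript level. Of 23 other Sin3 complex genes tested, 1 was called lower and 0 higher, beside 5.74% and 5.96% of all genes, with a median log2 fold of -0.19. Without overlap 5 were higher and 5 lower, beside 27.2% and 28.8% of all genes. Morf4l1, a chromodomain protein that also belongs to an acetyltransferase complex, stood at 8974 in both OSK-D7 libraries and at 4301 and 3405 with the hairpin (log2 fold -1.23, SE 0.18, limma adjusted p = 0.000294). Hdac1, a deacetylase of the complex, stood at 1265 and 1191 against 581 and 715 (-0.93, SE 0.17, limma adjusted p = 0.00133), under the fold needed for a call. Hdac2 stood at 1593 and 1271 against 1244 and 1508 (-0.06, limma adjusted p = 0.893), Sin3a, the scaffold, at 670 and 537 against 436 and 585 (-0.25, limma adjusted p = 0.466), and Sap30l, the close relative of Sap30, at 131 and 71 against 79 and 73 (-0.34, limma adjusted p = 0.621). For these 3 the groups overlapped. Morf4l1 was called whichever library was left out.

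Among other chromatin genes, polycomb subunits were called in both directions, 2 higher and 2 lower of 19, beside 5.96% and 5.74% of all genes. Rnf2 and Bmi1, of the ubiquitin ligase complex, stood at 292 and 212 against 566 and 739 (log2 fold 1.37, SE 0.26, limma adjusted p = 0.00202) and at 207 and 76 against 327 and 349 (1.42, SE 0.46, limma adjusted p = 0.0387). Ring1, the paralogue of Rnf2, stood at 56 and 82 against 18 and 24 (-1.66, SE 0.3, limma adjusted p = 0.00152), and Pcgf1 at 37 and 43 against 13 and 4 (-2.29, SE 0.42, limma adjusted p = 0.00174). The paralogues Rnf2 and Ring1 thus moved in opposite directions. Mta3 was the 1 gene called of 17 in the other corepressor complexes (-1.16, limma adjusted p = 0.0108), and 0 of 8 genes of DNA methylation were called (limma, with Dnmt1 at an adjusted p of 0.442 and Tdg at 0.181). Bmi1 (0.441) and Mta3 (0.0664) were lost without OSK-D7 replicate 2. Without OSK-shSap30-D7 replicate 1 the same 2 were lost (0.102 and 0.0545), and without OSK-shSap30-D7 replicate 2, Bmi1 (0.149).

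In signalling lists few genes passed. Beside them, 5.96% of all genes tested were called higher and 5.74% lower. In the BMP list 3 of 15 were higher: Grem1, Bmpr2, the type II receptor, at 408 and 321 against 751 and 912 (log2 fold 1.19, SE 0.23, limma adjusted p = 0.00196), and the ligand Bmp2 at 42 and 20 against 86 and 115 (1.74, limma adjusted p = 0.0483). In the Wnt list 2 of 20 were higher and 2 lower. Nkd1, a feedback inhibitor of the pathway, stood at 1344 and 1729 against 429 and 344 (-1.99, SE 0.68, limma adjusted p = 0.0491), the secreted antagonist Dkk2 at 113 and 86 against 44 and 39 (-1.23), the receptor Fzd7 at 49 and 23 against 116 and 84 (1.53) and the ligand Wnt4 at 2 and 2 against 21 and 14 (2.6). Wnt4 passed the filter through the hairpin libraries alone. In the TGF-beta list 1 of 15 was higher, the Smad corepressor Skil, at 131 and 59 against 203 and 204 (1.2, limma adjusted p = 0.0388). Bmpr2 was called whichever library was left out. Nkd1 (limma adjusted p of 0.089 to 0.243) and Dkk2 (0.07 to 0.135) were lost when any library was left out. Without OSK-D7 replicate 2, Bmp2 (0.347), Grem1 (0.138), Fzd7 (0.183), Wnt4 (0.055) and Skil (0.422) were lost. Without OSK-shSap30-D7 replicate 1, Bmp2 (0.0886), Fzd7 (0.0753) and Skil (0.113) were lost, and without replicate 2, Bmp2 (0.207), Grem1 (0.0743) and Skil (0.137).

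AP-1 subunits, the factors of fibroblast enhancers, were split. Of 12 besides Jun, Fosl1 and Fosl2 were higher and Jund was lower. Of all genes tested, 5.96% were called higher and 5.74% lower. Fosl2 stood at 163 and 147 in OSK-D7 and at 357 and 322 with the hairpin (log2 fold 1.13, SE 0.27, limma adjusted p = 0.00902), and Jund at 1046 and 1177 against 699 and 420 (-1.03, SE 0.25, limma adjusted p = 0.0102). Of 11 contractile genes, Cald1, which encodes caldesmon, stood at 972 and 654 against 1948 and 2946 (1.59, SE 0.25, limma adjusted p = 0.000613), Flna, a crosslinker of actin, at 3406 and 2257 against 6922 and 7715 (1.4, SE 0.3, limma adjusted p = 0.00494), and Actg2 at 48 and 58 against 9 and 16 (-2.04, SE 0.48, limma adjusted p = 0.00779). Cald1 was called whichever library was left out. Without OSK-D7 replicate 2, Fosl1 (0.419), Fosl2 (0.0867), Jund (0.099), Flna (0.0911) and Actg2 (0.0812) were lost. Jund was lost without OSK-shSap30-D7 replicate 2 too (0.142), Actg2 without replicate 1 (0.0664), and Fosl1 without either (0.0632 without replicate 1 and 0.167 without replicate 2).

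Lists of growth and metabolism held 0 to 3 called genes each, beside 5.96% called higher and 5.74% lower of all genes tested. Of 34 cell cycle genes 1 was lower, Ccnb2, a mitotic cyclin, at 515 and 745 in OSK-D7 and 225 and 153 with the hairpin (log2 fold -1.73, SE 0.33, limma adjusted p = 0.00188). The groups did not overlap for 18 lower and 5 higher of the 34, beside 28.8% and 27.2% of all genes, and the median was -0.32. Mki67 stood at 3778 and 2078 against 1704 and 3159 (-0.27, limma adjusted p = 0.757), with overlap. Of 20 respiratory chain genes 1 was lower, Cox5a (-1.59, limma adjusted p = 0.0394), with a median of -0.49. Adm, the hypoxia-inducible peptide adrenomedullin, stood at 20 and 10 against 92 and 167 (3.04, SE 0.49, limma adjusted p = 0.000648), and Sc5d, a late enzyme of cholesterol synthesis, at 182 and 134 against 391 and 479 (1.46, SE 0.24, limma adjusted p = 0.000616). In the heat shock list 1 of 11 was higher and 1 lower. Hspa1b, an inducible Hsp70, stood at 84 and 19 against 151 and 108 (1.64, SE 0.52, limma adjusted p = 0.0359), and was lost without OSK-D7 replicate 2 (0.51), OSK-shSap30-D7 replicate 1 (0.16) or OSK-shSap30-D7 replicate 2 (0.0812). Hsp90aa1, the inducible cytosolic chaperone, stood at 7726 and 6129 against 2803 and 2153 (-1.49, SE 0.33, limma adjusted p = 0.00608). The glycolysis and hypoxia list held 2 higher genes of 25, Adm and the hexokinase Hk2, at 528 and 241 against 970 and 743 (1.25, limma adjusted p = 0.0174), and 1 lower, the aldolase Aldoc, at 472 and 1344 against 240 and 59 (-2.73, limma adjusted p = 0.00488). Hk2 was lost without OSK-D7 replicate 2 (0.283) or OSK-shSap30-D7 replicate 1 (0.105), and Aldoc without OSK-D7 replicate 2 (0.104) or OSK-shSap30-D7 replicate 2 (0.0852). Ccnb2, Adm and Sc5d were called whichever library was left out. Hsp90aa1 was lost without OSK-shSap30-D7 replicate 2 (0.0583), and Cox5a without that library (0.5) or OSK-D7 replicate 2 (0.269).

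Hox genes, the record of body position in fibroblasts, were called lower in 4 of 25 and higher in 1, beside 5.74% and 5.96% of all genes. Hoxc5 stood at 95 and 99 in OSK-D7 and at 12 and 15 with the hairpin (log2 fold -2.76, SE 0.56, limma adjusted p = 0.00318), and its neighbour Hoxc4 at 104 and 207 against 35 and 68 (-1.57, SE 0.41, limma adjusted p = 0.0139). Hoxc9 (-1.61) and Hoxb3 (-1.45) were the other falls, and Hoxd8, the 1 called higher, stood at 8 and 5 against 23 and 25 (1.77, limma adjusted p = 0.0301). Hoxd8 passed the filter through the hairpin libraries alone and Hoxc9 through OSK-D7 alone. Hoxc5 was called whichever library was left out. The other 4 were lost without OSK-D7 replicate 2 (0.0924 for Hoxc9 to 0.215 for Hoxd8) or OSK-shSap30-D7 replicate 1 (0.0822 for Hoxd8 to 0.468 for Hoxb3). Hoxc9 and Hoxd8 were lost without OSK-shSap30-D7 replicate 2 too (0.0814 and 0.125), and Hoxc9 and Hoxb3 without OSK-D7 replicate 1 (0.107 and 0.0796).

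In the trophoblast, keratinocyte, macrophage and adipocyte lists, some genes were called while some defining ones were at or near 0. In the endothelial list 2 of 4 genes tested were called higher and 0 lower, and in the neural list 0 and 1 of 14. Of all genes tested, 5.96% were called higher and 5.74% lower. The summed value of the endothelial markers was 449 and 600 in OSK-D7 and 904 and 1227 with the hairpin. For neural markers it was 6708 and 6113 against 6941 and 10315. Bmp8b, of the trophoblast list, stood at 1 and 2 in OSK-D7 and at 70 and 82 with the hairpin (log2 fold 4.97, SE 0.78, limma adjusted p = 0.000548), and passed the filter through the hairpin libraries alone, while Hand1, Prl3d1 and Sct were listed at 0 in all 4 libraries. Of 12 keratinocyte genes tested, 3 were called higher and 0 lower, beside 5.96% and 5.74% of all genes tested. They were Krt6a, Klk10 (17 and 14 against 85 and 167) and Col17a1 (14 and 9 against 33 and 76). The basal keratin Krt5 stood at 0 and 0 against 9 and 8. In the macrophage list 2 of 6 were called higher and 1 lower, beside 5.96% and 5.74% of all genes tested. Itgam, an integrin, stood at 17 and 13 against 54 and 114 (2.32, limma adjusted p = 0.0155), and Laptm5, a lysosomal protein, at 128 and 110 against 252 and 941 (2.03, limma adjusted p = 0.037). Mrc1, the mannose receptor, was the lower one, at 24 and 18 against 0 and 4 (-3.28, SE 1.11, limma adjusted p = 0.0483); it passed the filter through OSK-D7 alone and lost its call without OSK-D7 replicate 1 (0.141), OSK-D7 replicate 2 (0.164) or OSK-shSap30-D7 replicate 1 (0.301). Tyrobp was listed at 0 in all 4 libraries, and Csf1r and Spi1 were at most 3. The summed value of the 15 macrophage and blood markers was 297 and 291 in OSK-D7 and 394 and 1189 with the hairpin, with Laptm5 as 941 of the last; its part in other results was not tested. Lpl, lipoprotein lipase, stood at 136 and 97 against 376 and 690 (2.14, SE 0.37, limma adjusted p = 0.00118), while Fabp4 and Cebpa were at most 2. Lpl and Bmp8b were called whichever library was left out. Klk10, Col17a1 and Laptm5 were lost without OSK-D7 replicate 1 (0.0673, 0.0726 and 0.0801), and these with Itgam without OSK-D7 replicate 2 (0.124 for Itgam to 0.262 for Col17a1) or OSK-shSap30-D7 replicate 2 (0.144 for Itgam to 0.349 for Laptm5).

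Over the 24 libraries without the hairpin, the genes whose log2 values ran most like Sap30 were Gstm1 (Pearson r 0.955), Gm38312 (0.954), Slc35f2 (0.95), Cdc5l (0.941), Plekha7 (0.939), Cenpv (0.938), Bex1 (0.937) and Cdca7 (0.936). The 24 libraries share the course from fibroblast to stem cell, so the correlations describe that course. In the comparison with the hairpin, Gstm1, a glutathione transferase, was lower, at 375 and 719 in OSK-D7 and 190 and 164 with the hairpin (log2 fold -1.55, SE 0.3, limma adjusted p = 0.0024). Cdc5l, a splicing factor, stood at 1080 and 1195 against 404 and 597 (-1.21, SE 0.25, limma adjusted p = 0.00373), and Gm38312 at 7733 and 6942 against 1485 and 2414 (-1.95, SE 0.55, limma adjusted p = 0.0225). The other 5 were not called, with log2 folds from -0.64 for Cenpv to 0.91 for Bex1. Gstm1 was lost without OSK-D7 replicate 2 (0.0664), Gm38312 without that library (0.112), OSK-D7 replicate 1 (0.0761) or OSK-shSap30-D7 replicate 1 (0.131), and Cdc5l fell short of the fold without OSK-shSap30-D7 replicate 1.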

How the data were processed

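RNA from 26 libraries was measured by sequencing on a NextSeq 500 after TruSeq preparation, per the labels' protocols. The deposited table holds 1 score per gene and library: whole numbers that share 1 distribution in every library, and so not counts. The submitters' processing notes name Bowtie2, RSEM and bcl2fastq, without order, and the versions are not given in the sources used here. With no counts, depth is unknown and no count model or interval was used. Columns were matched to samples by name.

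Computed here, with R 4.3.3 and limma 3.58.1: log2(value + 1), 1 mean for each of 13 groups over all 26 libraries (13 residual degrees of freedom), variances moderated with a trend and robustly, and Benjamini-Hochberg adjustment over 13214 genes. These had a value of at least 10 in 2 of the 4 libraries. Calls needed an adjusted p under 0.05 and a log2 fold of 1. The test was checked on simulated data. Symbols were matched for 18039 genes and not for 159. Coordinates are from GENCODE (GRCm38), promoters from RefSeq (GRCm38.p6).

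Genes named are Sap30, Pou5f1, Sox2, Klf4, Myc and Jun; the 14 largest called increases and decreases whose groups do not overlap and whose higher mean is at least 100, leaving out model, clone and pseudogene symbols; the called members of each list (at most 6, by adjusted p, or the 3 highest if none); and the 8 genes most correlated with Sap30. Others named with values were chosen after their values were seen. The members and the 38 gene lists were chosen with earlier results of these data known. Alternatives were the pseudocount, the filter, the libraries in the fit, the trend and robust settings, a replicate block, median centring and leaving out each library. Of the called interferon-stimulated genes, 1 is not reported here by name.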

Additional observations from a re-analysis of the deposited data

How the results depend on the processing

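Of the 200 genes followed through the alternatives, 25 changed sign under at least 1, and 0 of those were called; Pou5f1 (0.43 without OSK-D7 replicate 1) and Myc (-0.07 without OSK-D7 replicate 2) were among them. The count of calls was 1546, and leaving out 1 library gave 523 to 1807 (higher 303 to 965, lower 220 to 842), lowest without OSK-D7 replicate 2. The same settings gave 5 to 12 lower antigen presentation genes, 3 to 9 lower interferon-stimulated genes, 3 to 10 higher imprinted genes and 2 to 6 higher primitive endoderm genes. A filter at a mean of 50 left 493 lower calls. A fit on the 4 libraries alone gave 425 calls (243 higher, 182 lower), with 2 imprinted and 2 primitive endoderm genes higher. With a pseudocount of 10 the ESC-high position differed by -5.41. The deviations of replicate 1 in the 2 groups did not correlate over genes (-0.015), which does not show that replicate number carried no shift. Over MEF-high genes, replicate 2 stood nearer ESC than replicate 1 at every day of OSK and of OSK with cJun. In OSK-D7 the positions were 42.66% and 50.04%. With the hairpin the order was reversed (40.14% and 38.46%). With a replicate block over 26 libraries 1660 genes were called (843 higher, 817 lower), and with the block on the 4 libraries 0 by limma, with 2723 at an unadjusted p under 0.05. Depth is unknown, and 16 tested genes reached the ceiling of the table in at least 1 of the 4 libraries.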

Other observations

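These genes were chosen after their values were seen, so only values are given. All 14 interferon-inducible GTPases looked up were lower with the hairpin without overlap, beside 28.8% of all genes tested. Among them Gbp8 (22 and 51 in OSK-D7 against 6 and 7) passed the filter through OSK-D7 alone, so that it had to differ. Tgtp1 stood at 4013 and 4307 in OSK-D7 and at 375 and 303 with the hairpin, Irgm2 at 611 and 543 against 69 and 24, and Iigp1 at 427 and 243 against 38 and 17. MHC class II genes, at low levels in OSK-D7, were lower without overlap in 6 of 7 tested, but 5 of the 6 were under 10 in both hairpin libraries and passed the filter through OSK-D7 alone, so that they had to differ. H2-Ab1 stood at 49 and 84 against 2 and 1, and H2-Aa at 45 and 120 against 3 and 5.

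Upstream of these genes the values differed less uniformly. Irf1, a transcription factor induced by interferon, stood at 821 and 682 in OSK-D7 and at 188 and 78 with the hairpin. Of 12 interferon receptors, kinases and regulators tested, 6 were lower and 3 higher without overlap, beside 28.8% and 27.2% of all genes tested. The receptor genes Ifngr1 (81 and 90 against 70 and 76) and Ifnar1 (387 and 376 against 400 and 439) stood close in both groups. Ifnar2 was lower, at 165 and 211 against 130 and 133, and Ifngr2 overlapped, at 250 and 168 against 254 and 126. Jak2, a kinase of the interferon-gamma receptor, was higher, at 244 and 312 against 588 and 440. Of 14 constitutive proteasome genes, 9 were lower without overlap and 0 higher, beside 28.8% and 27.2% of all genes tested. Psmb2 stood at 748 and 1256 against 455 and 374 and Psma1 at 1150 and 1150 against 719 and 545, while Psmb5, at 383 and 520 against 463 and 376, overlapped.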
